A study of Yarrowia lipolytica with 11 samples.

Results

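The oleaginous yeast Yarrowia lipolytica was compared by RNA sequencing as a mutant and as a wild type, both grown with hexanoic acid. The wild type is labelled wt. By its label the mutant is deleted for PEX10 (Δpex10) and carries a plasmid for overexpression of DGA1, so the effects of the deletion and of the plasmid cannot be told apart. Both strains grew in YPC medium with 1 g/L hexanoic acid, a medium-chain fatty acid, from independent colonies, and were harvested in exponential phase. The comparison rests on 6 of the 11 libraries of the series, 3 of the mutant and 3 of the wild type, and on all 7135 rows of the count table, of which 6301 passed the filter on low counts. The other 5 libraries are the same strains without acid, 2 of the mutant and 3 of the wild type. The labels do not say which strain the wild type is, whether it carried an empty plasmid, or which promoter drives DGA1.

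Yeasts degrade fatty acids in peroxisomes. An acyl-CoA synthetase activates the acid, acyl-CoA oxidases start each round of beta-oxidation and release hydrogen peroxide, catalase removes the peroxide, and a multifunctional enzyme and a thiolase finish the round and release acetyl-CoA. The product of PEX10 is a membrane protein of the machinery that recycles the receptors importing these enzymes into the peroxisome. The product of DGA1, a diacylglycerol acyltransferase, makes triacylglycerol, the storage lipid for which this yeast is known. The tables identify nuclear protein genes by locus tag only, and the reference table of another strain's tags matched 0 of them. Gene names below are published assignments for these tags, which no source used here could test, and every statement about a named gene rests on them.

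The 6 libraries held 9988288 to 14698252 counts each. Correlations of log2 CPM (counts scaled for library size, with TMM) were 0.973 to 0.990 among the mutant libraries, 0.980 to 0.985 among those of the wild type and 0.946 to 0.971 between strains. Wild-type replicate 1 gave the closest match to each of the mutant libraries (0.966, 0.971 and 0.970).

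PEX10 (YALI0_C01023g) was at 5.62, 8.04 and 5.33 CPM in the mutant and 18.6, 10.7 and 12.8 CPM in the wild type. The highest mutant library lay below the lowest wild-type one, with a log2 difference of −1.15 ± 0.29 (SE, adjusted p = 0.033 in edgeR's quasi-likelihood test with Benjamini-Hochberg adjustment, as for every adjusted p here). Reads on the PEX10 tag remained in all mutant libraries, 71 to 123 counts per library, and which stretch was deleted is not given. Without acid the log2 difference was −1.32 ± 0.34. In the libraries with acid the call did not hold without mutant replicates 1, 2 or 3 or wild-type replicates 1 or 3 (log2 −0.89 to −1.36, adjusted p = 0.0576 to 0.123), nor with scaling by total counts (log2 −1.03, adjusted p = 0.0666). DGA1 (YALI0_E32769g) was at 7807, 3412 and 3012 CPM in the mutant and 111, 120.4 and 174 CPM in the wild type. Its log2 difference was 5.13 ± 0.41 (adjusted p = 8.69e-05), and mutant replicate 1 stood apart from the other mutant libraries. The counts do not separate the chromosomal gene from the plasmid copy. Without that library the log2 difference was 4.58 (adjusted p = 2.32e-05).

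With acid, the strains differed in 673 of 6301 genes at an adjusted p under 0.05, which is 10.7% of the genes tested. The mutant was higher in 315 of them (5.0% of the genes tested) and lower in 358 (5.68%). The difference was at least 2-fold for 136 of the higher and 203 of the lower genes, and at least 4-fold for 26 and 41. Called genes had a median absolute log2 difference near 1.0 and a median SE of 0.23, and the median log2 difference over all genes tested was 0.03. In bulk RNA, fewer cells that express a gene and less RNA of it per cell cannot be told apart. The count depended on single libraries. It was 172 without mutant replicate 2, 223 without mutant replicate 3, 217 without wild-type replicate 2 and 134 without wild-type replicate 3, but 536 without mutant replicate 1 and 768 without wild-type replicate 1. Scaled by total counts alone, 422 genes were higher and 255 lower, and the median over all genes was 0.16.

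The direction varied with the level of the gene. Among 4259 genes with a mean under 100 CPM over the 6 libraries, the mutant was higher in 249 and lower in 140. Among 2042 genes at 100 CPM and above, it was higher in 66 and lower in 218. With total counts alone the numbers were 316 and 92 below 100 CPM and 106 and 163 above it, and with DESeq2 size factors 238 and 145, and 56 and 224. The 358 genes lower in the mutant took 13.2%, 15.8% and 16.4% of all scaled counts in the wild type with acid and 7.80%, 6.63% and 6.37% in the mutant with acid, as their selection requires. In the libraries without acid, these genes took 6.10% to 6.57% in the wild type and 8.46% and 9.19% in the mutant. The libraries without acid were not in the groups compared, but they shared the filter, the scaling and the estimate of the spread.

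**Figure D1:**
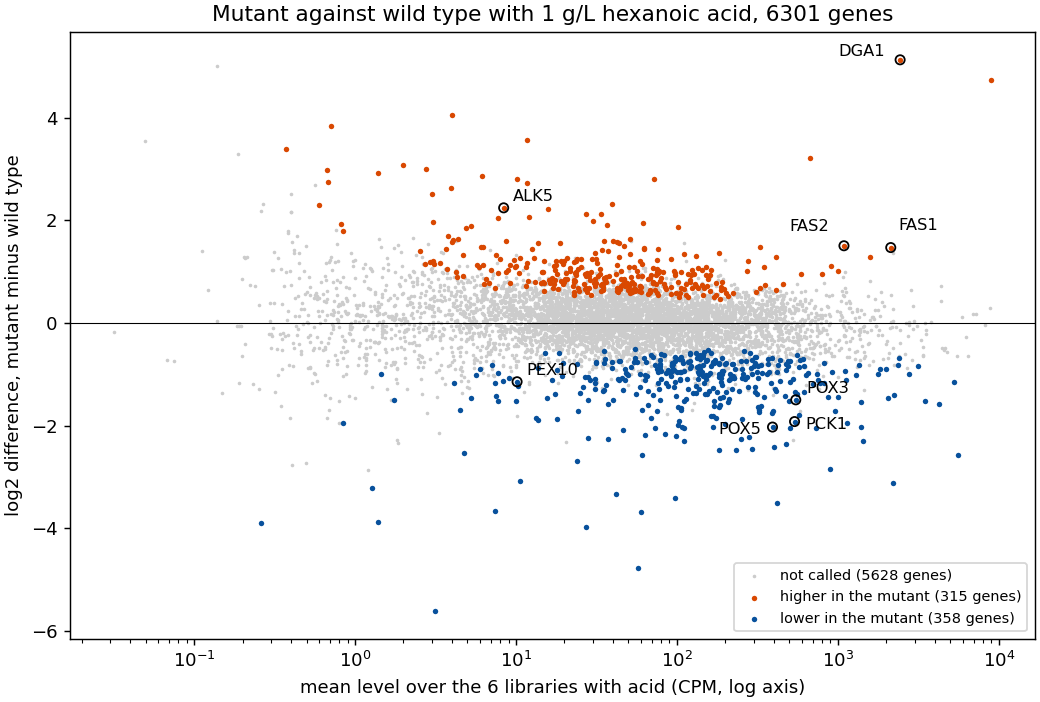
Log2 difference between mutant and wild type with acid (vertical axis) against the mean level over the 6 libraries (horizontal log axis, CPM), 1 point per gene, with called genes in colour. The 315 higher genes lie mostly below 100 CPM and the 358 lower genes mostly above it, and DGA1 stands at the top at 5.13.

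Of 137 genes in the lists of metabolic and peroxisomal genes, PEX10 and DGA1 included, 28 were called (20.4%, against 10.7% of all genes tested), 13 higher and 15 lower. The lists were drawn up with earlier results of these data known, so this share is a description. Over all genes tested, 27.5% had an unadjusted p under 0.05 and 16.8% passed with DESeq2. The counts by these measures given below for single lists stand against those shares. Counts of edgeR calls with acid stand against 10.7% of all genes tested, 5.0% higher and 5.68% lower.

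**Figure D2:**
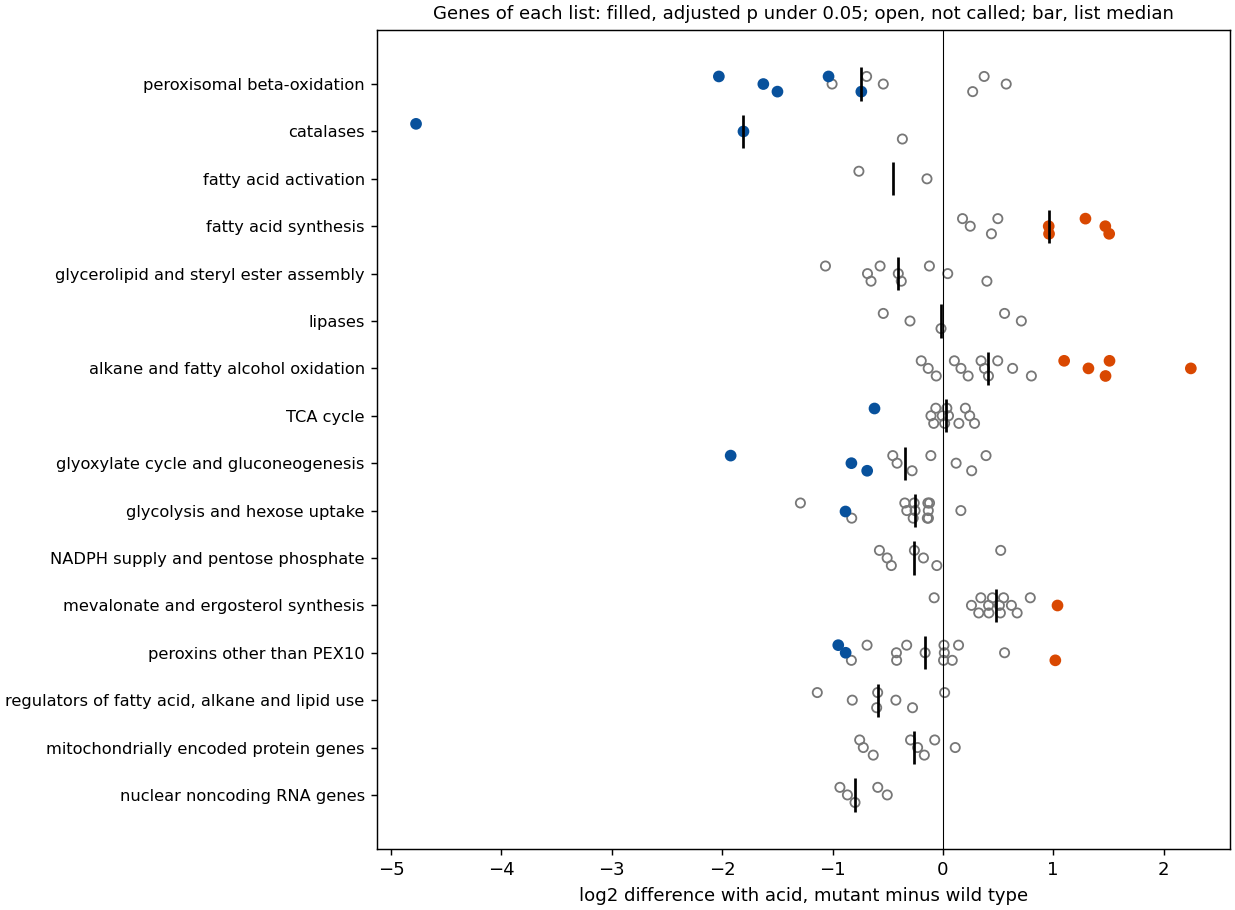
Log2 difference with acid (horizontal axis) for every tested gene of each list (points), filled where the adjusted p is under 0.05, with the list median as a bar. Every fatty acid synthesis gene lies above 0 and all 3 catalases below it, while the TCA cycle genes other than KGD2 lie between −0.11 and 0.29.

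Of 9 listed genes of fatty acid synthesis 5 passed, all higher in the mutant, as were 5.0% of all genes tested. The list median was 0.96 against 0.03 for all genes. FAS1 (YALI0_B15059g) and FAS2 (YALI0_B19382g) encode the subunits of fatty acid synthase. FAS1 was at 3057.9, 3009.9 and 3341 CPM in the mutant and 1335, 902 and 1154 CPM in the wild type. FAS2 was at 1579.8, 1369 and 1898 CPM in the mutant and 671, 480.0 and 554 CPM in the wild type. All 3 mutant libraries lay above all 3 wild-type libraries for both genes, which was so, in either direction, for 37.5% of all genes tested. Groups did not overlap for 661 of the 673 called genes. For a called gene, here and below, the lack of overlap therefore describes the values and adds little to the call. The log2 differences were 1.47 ± 0.23 (adjusted p = 0.00457) for FAS1 and 1.51 ± 0.21 (adjusted p = 0.00355) for FAS2, and both calls held without any single library. ACC1 (YALI0_C11407g), acetyl-CoA carboxylase, which makes the malonyl-CoA that the synthase extends, was at 1945, 2196 and 2658 CPM in the mutant and 1123, 767 and 886 CPM in the wild type. Its log2 difference was 1.29 ± 0.21 (adjusted p = 0.00572), also called without any single library.

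ATP citrate lyase, which supplies cytosolic acetyl-CoA, has its subunits encoded by ACL1 (YALI0_E34793g) and ACL2 (YALI0_D24431g). ACL1 was at 1084, 855 and 1243 CPM in the mutant and 595, 516 and 523 CPM in the wild type. The groups did not overlap for either gene, with log2 differences of 0.96 ± 0.26 (adjusted p = 0.0403) and 0.96 ± 0.27 (adjusted p = 0.0435). Neither call held when any one of the 6 libraries was left out (log2 0.83 to 1.10 for ACL1 and 0.78 to 1.10 for ACL2, adjusted p = 0.0556 to 0.146 and 0.0644 to 0.164), so that the list then had 3 called genes in each of these fits. The desaturases and elongases OLE1, FAD2, ELO1 and ELO2 did not pass, with log2 values from 0.18 to 0.50. Without acid the list had 0 called genes of 9 in edgeR, where 38.1% of all genes were called, and a median of 0.02. FAS1 then stood at 4004 and 3662 CPM in the mutant and 3867, 2802 and 4393 CPM in the wild type, and the groups overlapped. FAS1, FAS2, ACC1, ACL1 and ACL2 each had a strain difference with acid that was larger than that without acid in the test of the difference (adjusted p = 0.00658 to 0.0380).

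Of 11 listed genes of peroxisomal beta-oxidation 5 were lower in the mutant and 0 higher, against 5.68% and 5.0% of all genes tested. The list median was −0.74. In the list 8 had an unadjusted p under 0.05 (27.5% of all genes tested). With DESeq2 7 were lower (16.8% of all genes passed, in either direction), and 7 were called in a fit to the 6 libraries alone. The acyl-CoA oxidase gene POX3 (YALI0_D24750g) was at 222, 291 and 346 CPM in the mutant and 802, 730.2 and 897 CPM in the wild type. POX5 (YALI0_C23859g), another oxidase gene, was at 169.8, 142 and 152 CPM in the mutant and 567, 554 and 773 CPM in the wild type. Every mutant library was below every wild-type library for both. Their log2 differences were −1.50 ± 0.24 (adjusted p = 0.00562) and −2.03 ± 0.29 (adjusted p = 0.00355), and both calls held without any single library. POT1 (YALI0_E18568g), encoding the thiolase, was at 144, 168 and 178 CPM in the mutant and 539, 389.7 and 583 CPM in the wild type, again without overlap, with a log2 difference of −1.63 ± 0.31 (adjusted p = 0.0109). That call was lost without wild-type replicate 3 (log2 −1.51, adjusted p = 0.0507).

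Of 3 carriers of the peroxisomal membrane, which are part of the beta-oxidation list, 2 were lower in the mutant, against 5.68% of all genes tested. PXA2 (YALI0_D04246g), a subunit of the transporter that brings acyl-CoA into the peroxisome, had a log2 difference of −0.74 ± 0.18 (adjusted p = 0.0287), and PXA1, the other subunit, had −0.54 ± 0.19 (adjusted p = 0.0948) and did not pass. ANT1 (YALI0_E03058g), the peroxisomal ATP carrier needed to activate shorter fatty acids inside the organelle, had −1.04 ± 0.28 (adjusted p = 0.0389), from 68.2, 97.3 and 122 CPM in the mutant and 237, 157 and 196 CPM in the wild type. The groups did not overlap for PXA2 and ANT1. The PXA2 call was lost without mutant replicates 1, 2 or 3 or wild-type replicates 2 or 3 (log2 −0.61 to −0.80, adjusted p = 0.0582 to 0.125). The ANT1 call was lost without any one of the 6 libraries (log2 −0.84 to −1.25, adjusted p = 0.0551 to 0.116). The list had 3 called genes without mutant replicates 1, 2 or 3 or wild-type replicate 2, and 2 without wild-type replicate 3. It had 3 with scaling by total counts, which lost PXA2 (log2 −0.59, adjusted p = 0.0689) and ANT1 (log2 −0.91, adjusted p = 0.0754). Among the members that did not pass, MFE1, the multifunctional enzyme, was at −0.69 ± 0.21 (adjusted p = 0.0569) and POX2 at −1.0 ± 0.38 (adjusted p = 0.114), while POX1, POX4 and POX6 had values of 0.57, 0.27 and 0.37.

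Called oxidase genes did not share a direction without acid. POX5 was then at 109.8 and 251 CPM in the mutant and 53.1, 36.2 and 42.4 CPM in the wild type, higher in the mutant with a log2 difference of 2.04 ± 0.31 (adjusted p = 0.000468), whereas POX3 was lower (−0.76 ± 0.27, adjusted p = 0.0431). The wild-type level of POX5 was 14.4-fold higher with acid than without it. For POX5 the strain differences with and without acid differed by −4.07 ± 0.43 (adjusted p = 7.97e-05). For POX3 and POT1 the test of that difference did not pass (adjusted p = 0.148 and 0.194).

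Of 3 listed catalase genes, 2 were lower in the mutant, against 5.68% of all genes tested, and the third did not pass. YALI0_E34265g was at 4.67, 3.79 and 3.63 CPM in the mutant and 22.8, 189 and 119 CPM in the wild type, and wild-type replicate 1 was far below the other wild-type libraries. Its log2 difference was −4.77 ± 0.64 (adjusted p = 0.00341), and −5.26 without that library. The call held without any single library, with values of −4.14 to −5.26. YALI0_E34749g was at 82.5, 46.4 and 88.1 CPM in the mutant and 105, 388 and 266 CPM in the wild type, with a log2 difference of −1.81 ± 0.46 (adjusted p = 0.0319) that was lost without mutant replicates 1, 2 or 3 or wild-type replicates 2 or 3 (log2 −1.36 to −1.97, adjusted p = 0.0544 to 0.128). YALI0_F30987g had −0.37 ± 0.17 (adjusted p = 0.183). Without acid YALI0_E34265g was at 20.4 and 36.9 CPM in the mutant and 2.25, 1.44 and 2.54 CPM in the wild type, a difference of the opposite sign (3.78 ± 0.67, adjusted p = 0.0012), and YALI0_E34749g was at 3.26 ± 0.52. By group mean, the wild type had the lowest level of both genes without acid and the highest with it. Neither gene of fatty acid activation passed (edgeR called 0 of 2, DESeq2 called 1, and 1 had an unadjusted p under 0.05). FAA1, the acyl-CoA synthetase, was at −0.14 ± 0.20 and FAT1 at −0.76 ± 0.27.

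**Figure D3:**
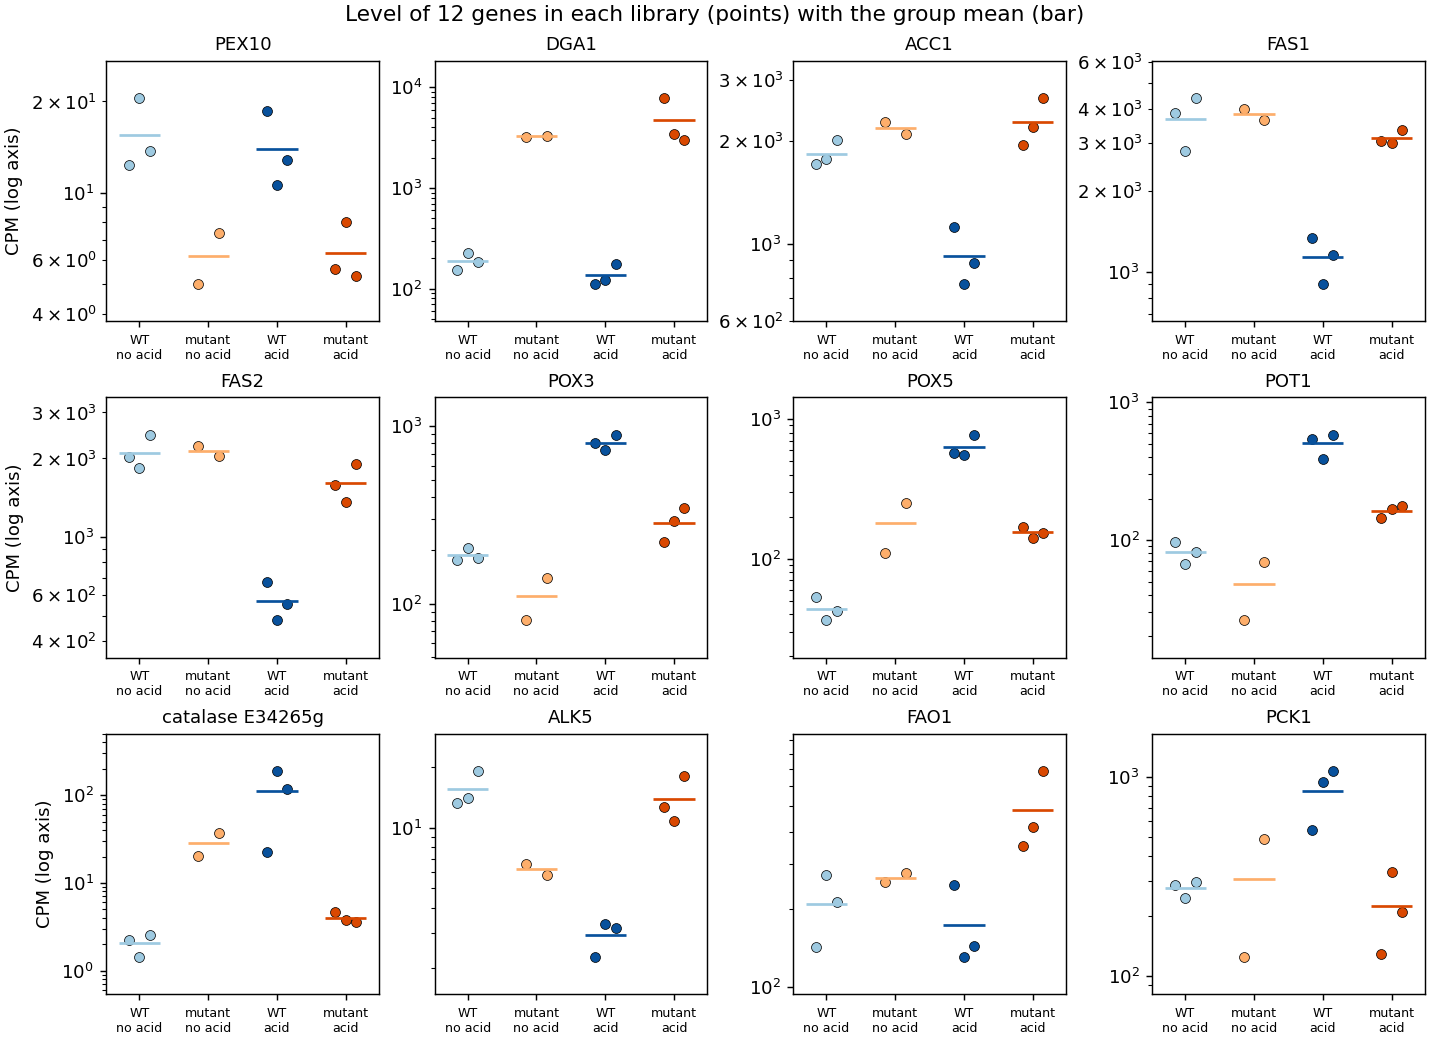
Level of 12 genes in every library (points, CPM on a log axis) by strain and condition, with the group mean as a bar. FAS1, FAS2 and ACC1 are low in the wild type with acid alone, POX3, POX5, POT1 and PCK1 are highest there, and DGA1 is high in both mutant groups.

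The list of alkane and fatty alcohol oxidation holds P450, fatty aldehyde dehydrogenase and fatty alcohol oxidase genes, and those called were all higher in the mutant. Whether each P450 acts on alkanes or on fatty acids was not tested. Of 17 listed genes 5 were higher in the mutant and 0 lower, the same numbers as with DESeq2, and the list median was 0.41. Of all genes tested in edgeR, 5.0% were higher and 5.68% lower. ALK5 (YALI0_B13838g), a cytochrome P450 of the family that hydroxylates alkanes and fatty acids, was at 12.7, 10.9 and 18.1 CPM in the mutant and 2.27, 3.33 and 3.18 CPM in the wild type. Its log2 difference was 2.25 ± 0.27 (adjusted p = 0.00211), without overlap and called without any single library. FAO1 (YALI0_B14014g), fatty alcohol oxidase, was at 352, 416 and 685 CPM in the mutant and 248, 131 and 144 CPM in the wild type, with a log2 difference of 1.47 ± 0.33 (adjusted p = 0.0196). YALI0_F23793g, a fatty aldehyde dehydrogenase, had a log2 difference of 1.10 ± 0.19 (adjusted p = 0.007), without overlap and called without any single library.

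Of the other P450 genes, ALK6 (YALI0_B01848g) was at 65.2, 69.03 and 73.3 CPM in the mutant and 24.9, 20.8 and 27.1 CPM in the wild type, and ALK1 (YALI0_E25982g) at 7.12, 10 and 15.3 CPM in the mutant and 6.82, 2.33 and 3.64 CPM in the wild type. The groups did not overlap for either gene. For ALK1 the gap was small, since the lowest mutant and the highest wild-type library were at 7.12 and 6.82 CPM. Their log2 differences were 1.51 ± 0.33 (adjusted p = 0.0188) for ALK6 and, for ALK1, 1.3 ± 0.37 (adjusted p = 0.0436). The calls were lost without mutant replicates 2 or 3 or wild-type replicates 2 or 3 (log2 1.41 to 1.60, adjusted p = 0.0596 to 0.0799) for ALK6, without mutant replicates 2 or 3 or wild-type replicates 2 or 3 (log2 0.99 to 1.38, adjusted p = 0.103 to 0.165) for ALK1 and without mutant replicates 2 or 3 or wild-type replicates 2 or 3 (log2 1.14 to 1.57, adjusted p = 0.0507 to 0.0947) for FAO1. In a fit to the 6 libraries alone ALK1 did not pass (adjusted p = 0.0779). The list had 2 called genes without mutant replicates 2 or 3 or wild-type replicates 2 or 3. The other 12 members had values of −0.20 to 0.80, with SEs up to 0.905. Among them ALK9 had means of 0.475 CPM in the mutant and 0.373 CPM in the wild type, and ALK10 0.416 and 0.438 CPM. For such low genes a missing call does not show that the strains are alike. ALK genes are similar in sequence, and how reads shared among them were counted is not given. Without acid the mutant was lower in ALK5 (−1.32 ± 0.29, adjusted p = 0.00422) and ALK1 (−1.16 ± 0.40, adjusted p = 0.0386), and the test of the difference between conditions passed for both, at 3.57 ± 0.40 (adjusted p = 0.00011) and 2.48 ± 0.54 (adjusted p = 0.00719). YALI0_F23793g and ALK6 were higher in the mutant without acid too (1.50 ± 0.20 and 1.80 ± 0.37).

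In the TCA cycle 1 of 12 genes passed, against 10.7% of all genes tested, and the other 11 lay between −0.11 and 0.29 with SEs up to 0.32. KGD2 (YALI0_E16929g), a subunit of oxoglutarate dehydrogenase, was at 389, 469 and 458 CPM in the mutant and 565, 727 and 737 CPM in the wild type. Its log2 difference of −0.63 ± 0.17 (adjusted p = 0.0433) was lost without mutant replicates 1, 2 or 3 or wild-type replicates 2 or 3 (log2 −0.54 to −0.68, adjusted p = 0.108 to 0.158). It was also lost with scaling by total counts (log2 −0.47, adjusted p = 0.0904), with no filter (log2 −0.62, adjusted p = 0.0517) and in a fit to the 6 libraries alone (log2 −0.62, adjusted p = 0.0535). Without acid 8 of the 12 genes were higher in the mutant, against 22.8% of all genes tested. The list median was then 1.19, against 0.03 with acid. The test of the difference between conditions passed, with smaller values with acid, for 7 genes, among them CIT1 (−1.91 ± 0.34), citrate synthase, IDH1 (−1.66 ± 0.32), isocitrate dehydrogenase, and FUM1 (−1.38 ± 0.32), fumarase. Of all genes tested, 25.5% passed that test.

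In the glyoxylate cycle and gluconeogenesis 3 of 10 genes were lower and 0 higher (median −0.35), against 5.68% and 5.0% of all genes tested. PCK1 (YALI0_C16995g), phosphoenolpyruvate carboxykinase, the committing enzyme of gluconeogenesis, was at 129, 335 and 210.1 CPM in the mutant and 544, 939.9 and 1073 CPM in the wild type, with a log2 difference of −1.92 ± 0.47 (adjusted p = 0.0288). ICL1 (YALI0_C16885g), isocitrate lyase of the glyoxylate cycle, was at 730.1, 1051 and 1139 CPM in the mutant and 1766, 1596 and 1826 CPM in the wild type (−0.83 ± 0.23, adjusted p = 0.0406). PYC1 (YALI0_C24101g), pyruvate carboxylase, was at 1827, 1806 and 1918 CPM in the mutant and 2471, 2997 and 3461 CPM in the wild type (−0.69 ± 0.20, adjusted p = 0.0449). The groups did not overlap for PCK1, ICL1 and PYC1. The PCK1 call was lost without mutant replicates 1 or 3 or wild-type replicates 2 or 3 (log2 −1.63 to −1.88, adjusted p = 0.0683 to 0.107) and the PYC1 call without mutant replicates 1, 2 or 3 or wild-type replicates 2 or 3 (log2 −0.56 to −0.71, adjusted p = 0.0865 to 0.187). The ICL1 call was lost without any one of the 6 libraries (log2 −0.65 to −0.96, adjusted p = 0.0654 to 0.144). The list had 0 called genes without mutant replicates 1 or 3 or wild-type replicates 2 or 3, 1 without mutant replicate 2 and 2 without wild-type replicate 1. With scaling by total counts it had 1, as ICL1 (log2 −0.69, adjusted p = 0.0737) and PYC1 (log2 −0.54, adjusted p = 0.0664) were lost, and with no filter it had 2, without PYC1 (log2 −0.68, adjusted p = 0.0533). ICL1 and PYC1 were lower in the mutant without acid as well (−1.29 ± 0.26 and −0.65 ± 0.22), and PCK1 was at 0.15 ± 0.51. The other 7 members lay between −0.45 and 0.39.

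Glycolysis and hexose uptake had 1 called gene of 14, against 10.7% of all genes tested. It was HXK1 (YALI0_B22308g), hexokinase, the enzyme that phosphorylates hexoses on entry. HXK1 was at 222, 182 and 206 CPM in the mutant and 336, 321 and 469.8 CPM in the wild type, without overlap, and its log2 difference was −0.89 ± 0.18 (adjusted p = 0.0142). The call was lost without mutant replicates 2 or 3 or wild-type replicate 3 (log2 −0.69 to −0.90, adjusted p = 0.0555 to 0.0792). The list median was −0.26 and 13 of 14 values were below 0, the exception being PGK1, phosphoglycerate kinase, at 0.16. The hexose transporter gene YHT1 had −1.29 ± 0.53 (adjusted p = 0.139) and did not pass. It was low with acid, at 1.50, 1.18 and 1.04 CPM in the mutant (14 to 19 counts per library) and 2.50, 1.89 and 4.57 CPM in the wild type. Without acid HXK1 was at 0.40 ± 0.20, and 6 glycolytic or uptake genes were higher in the mutant and 1 lower. Of all genes tested without acid, 22.8% were higher and 15.3% lower. In NADPH supply and the pentose phosphate pathway 0 of 7 genes passed in edgeR and 0 with DESeq2. An unadjusted p under 0.05 was found for 3, against 27.5% of all genes tested. Values ran from −0.57 for ZWF1, glucose-6-phosphate dehydrogenase, to 0.52 for IDP2. MAE1, malic enzyme, was at −0.51 ± 0.21 with acid and 4.71 ± 0.26 without it. Its place in this list rests on the enzyme name, and whether it supplies NADPH here was not tested.

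Of 14 mevalonate and ergosterol genes 1 passed, higher in the mutant, against 10.7% of all genes tested that passed in either direction. That gene was ERG10 (YALI0_B08536g), acetoacetyl-CoA thiolase, the opening step from acetyl-CoA, at 195, 182 and 279 CPM in the mutant and 131, 95.4 and 93.9 CPM in the wild type. The groups did not overlap, and the log2 difference was 1.04 ± 0.22 (adjusted p = 0.0164). The call was lost without mutant replicate 3 or wild-type replicates 2 or 3 (log2 0.82 to 0.96, adjusted p = 0.071 to 0.0837), and without wild-type replicate 1 the list had 5 called genes. In the list 13 of 14 values were above 0, with a median of 0.48. An unadjusted p under 0.05 was found for 8 (27.5% of all genes tested), and 2 passed with DESeq2 (16.8% of all). HMG1, the reductase that paces the pathway, was at 0.62 ± 0.19 (adjusted p = 0.0569) and did not pass. Without acid 7 genes were higher and 2 lower, against 22.8% and 15.3% of all genes tested, and the list median was 0.55.

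In glycerolipid and steryl ester assembly 0 of 9 genes passed in edgeR. An unadjusted p under 0.05 was found for 4 (27.5% of all genes tested), and 3 were lower with DESeq2 (16.8% of all passed, in either direction). DGA2, a second diacylglycerol acyltransferase that the mutant was not altered in, was at −0.68 ± 0.37. The acyltransferases LRO1 and ARE1, the latter a sterol acyltransferase, had values of −0.12 ± 0.16 and −1.06 ± 0.33, and the glycerol kinase gene GUT1 had −0.65 ± 0.24. The count was 1 without mutant replicate 1 and 1 without wild-type replicate 1. Of 5 lipases 0 passed in edgeR and with DESeq2, and 1 had an unadjusted p under 0.05 (27.5% of all genes tested). LIP2, the main extracellular lipase, was at 0.71 ± 0.43 and the intracellular lipases TGL3 and TGL4 at −0.54 ± 0.24 and −0.30 ± 0.17.

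Among 15 peroxins other than PEX10, the proteins that build peroxisomes, 2 were lower in the mutant, 1 was higher and 12 did not pass. Over all genes tested, 5.68% were lower and 5.0% higher. PEX11 (YALI0_C04092g), which acts in peroxisome proliferation, was at 64.6, 89.4 and 101 CPM in the mutant and 158, 143 and 168 CPM in the wild type. PEX13 (YALI0_C05775g), a membrane component of the docking complex for import receptors, was at 59.9, 72.9 and 71.1 CPM in the mutant and 135, 131 and 128 CPM in the wild type. PEX6 (YALI0_C18689g), a subunit of the ATPase that pulls used receptors out of the membrane, was at 69.9, 71.1 and 86.6 CPM in the mutant and 47.6, 31.2 and 33.4 CPM in the wild type. None of the 3 had overlapping groups, as was so for 661 of the 673 called genes. Their log2 differences were −0.88 ± 0.19 (adjusted p = 0.0162), −0.95 ± 0.22 (adjusted p = 0.0235) and 1.02 ± 0.19 (adjusted p = 0.01). The calls were lost without mutant replicate 2 or wild-type replicate 3 (log2 −0.82 to −0.92, adjusted p = 0.0596 to 0.0737) for PEX11, without mutant replicates 1, 2 or 3 or wild-type replicates 2 or 3 (log2 −0.86 to −1.0, adjusted p = 0.0648 to 0.0791) for PEX13 and without wild-type replicate 3 (log2 0.94, adjusted p = 0.056) for PEX6. The PEX13 call was also lost with scaling by total counts (log2 −0.81, adjusted p = 0.0615).

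The count of called peroxins was 0 without wild-type replicate 3, 1 without mutant replicate 2, 2 without mutant replicate 3 or wild-type replicate 2, and 4 without wild-type replicate 1. PEX2, a subunit of the ubiquitin ligase of the import machinery together with PEX10, was at −0.42 ± 0.30. PEX5, the import receptor, was at 0.09 ± 0.18. PEX11 and PEX13 were also lower in the mutant without acid (−1.16 ± 0.22 and −0.83 ± 0.26), whereas PEX6 was at 0.26 ± 0.21. The test of the difference between conditions passed for none of PEX6, PEX11 and PEX13 (edgeR adjusted p = 0.0708 to 0.827).

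Of 7 regulators of fatty acid, alkane and lipid use edgeR called 0, with a median of −0.59. DESeq2 called 3 (16.8% of all genes tested), and 4 had an unadjusted p under 0.05 (27.5% of all). POR1, a transcription factor of fatty acid use, was at −0.60 ± 0.21 (adjusted p = 0.0905), and YAS2, a factor of the alkane response, at −1.14 ± 0.34 (adjusted p = 0.0544). Without wild-type replicate 1 the count was 1, and in a fit to the 6 libraries alone it was 2. The kinase gene SNF1 was at 0.02 ± 0.14. Among genes that the tables name themselves, 8 of 14 mitochondrially encoded protein genes had enough counts to be tested. Of these, 0 passed in edgeR or DESeq2, and 0 had an unadjusted p under 0.05. Values were −0.75 to 0.11, with SEs of 0.425 to 0.756. Group means with acid ran from 0.487 CPM (nd1, mutant) to 28.6 CPM (atp9, wild type). At such levels and SEs a lack of calls does not show that the strains are alike. Of 8 nuclear noncoding RNA genes 5 were tested, of which 0 passed in edgeR or DESeq2 and 1 had an unadjusted p under 0.05. Their SEs were 0.379 to 0.703, and group means with acid ran from 0.541 CPM (SRN19, mutant) to 13.0 CPM (SNR17, wild type). All 5 values were below 0, from −0.93 for SCR1, the RNA of the signal recognition particle, to −0.50 for SNR14.

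Outside the lists, 536 called genes had groups that did not overlap and a mean of at least 20 CPM in the higher group, and the 2 with the largest log2 difference in each direction were followed. No source used here annotates them. YALI0_C11165g was at 10041, 26484 and 15065 CPM in the mutant and 1052, 351 and 535 CPM in the wild type, higher in every mutant library, with a log2 difference of 4.73 ± 0.77 (adjusted p = 0.006). YALI0_A14883g was at 11.1, 39.4 and 14.6 CPM in the mutant and 2.58, 1.89 and 1.01 CPM in the wild type (3.57 ± 0.85, adjusted p = 0.0242), and this call was lost without mutant replicate 2 or wild-type replicates 2 or 3 (log2 2.81 to 3.59, adjusted p = 0.0886 to 0.11). Both were higher in the mutant without acid too, by 7.51 ± 0.90 and 7.21 ± 0.95. YALI0_F19712g was at 4.67, 3.14 and 1.92 CPM in the mutant and 7.42, 101 and 45.7 CPM in the wild type (−3.98 ± 0.74, adjusted p = 0.00964), with wild-type replicate 1 close to the mutant. Without that library its log2 difference was −4.50, and without wild-type replicate 2 it was −3.03. YALI0_E14256g was at 8.39, 9.41 and 7.99 CPM in the mutant and 47.1, 147 and 139 CPM in the wild type (−3.69 ± 0.43, adjusted p = 0.00202). These 2 genes were higher in the mutant without acid, by 3.39 ± 1.01 and 3.71 ± 0.58, where the wild type was at or below 0.522 and 0.525 CPM.

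The strain difference with acid was set beside that without acid, from libraries that the 2 comparisons do not share. Of the 315 genes higher in the mutant with acid, 168 were also higher without it, 26 were lower and 121 were not called. Of the 358 lower genes, 46 were also lower without acid, 113 were higher and 199 were not called. Without acid 22.8% of all genes tested were higher in the mutant and 15.3% lower. The test of the difference between conditions passed for 133 of the 315 and 206 of the 358, against 25.5% of all genes tested. These genes were chosen by the value with acid, which is part of the tested difference, so the counts are a description. Across all 6301 genes the log2 differences correlated weakly (Pearson r = 0.130, Spearman rho = 0.123), a description over genes, which are not independent replicates.

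**Figure D4:**
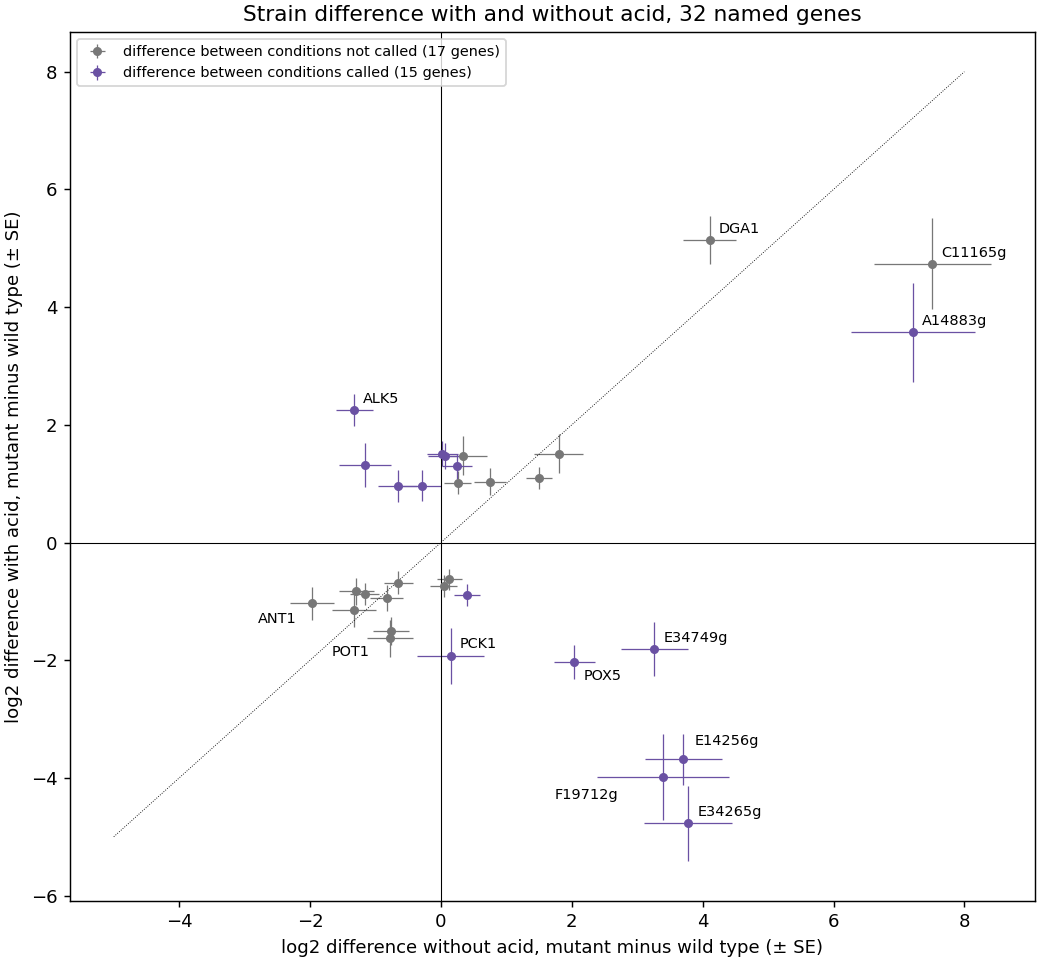
Log2 difference between mutant and wild type with acid (vertical axis) against that without acid (horizontal axis), each ± SE, for the 32 named genes that passed with acid, with equal values on the dotted line. POX5, both catalases and the lower genes outside the lists lie at the lower right, higher in the mutant without acid and lower with it, and ALK5 and ALK1 lie at the upper left.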

How the data were processed

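The authors deposited whole-number counts of reads per gene for each library, and a normalized signal that equals those counts over a single size factor for each library, which the values themselves show. The submitters' processing notes list STAR 2.7.9a and HTSeq 0.11.0, beside FastQC 0.11.7, SAMtools 1.9 and DESeq2 1.32.0, and per the labels' protocols the libraries were directional. Which build and annotation were used, and whether counting used strand, is not given in the sources used here, so no coordinates are printed, and overlapping, antisense and near-identical genes may share reads. Both tables hold 7135 genes.

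Counts were analysed with edgeR 4.0.16 in R 4.3.3 (TMM scaling, filterByExpr, 1 mean per group over all 11 libraries, quasi-likelihood F test, robust=TRUE), which left 6301 genes. Benjamini-Hochberg adjusted p under 0.05 over all of them was a call, the common biological coefficient of variation was 23.8%, and an SE is the absolute log2 difference divided by the square root of F. Each library counted as a replicate because the cultures are described as grown from independent colonies. Pairs of libraries of 1 group with acid differed by at least 48.6 in chi-square per degree of freedom. That value cannot tell separate cultures from separate preparations of 1 culture. The procedure was also run on simulated counts whose spread followed the trend over level, without libraries that stand apart. That run does not bear on calls lost when 1 library is left out. Alternatives were other scalings, no filter, a filter of 10 counts, DESeq2 1.42.0, replicate blocks, the 6 libraries alone and each library left out.

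List members that passed were named, and up to 4 per list given by library. Outside the lists, the rule took the largest log2 differences among called genes without overlap and with at least 20 CPM. Members that did not pass were named after their values were seen. The members and lists were chosen with earlier results of these data known, and the last 2 lists (mitochondrial and noncoding genes) after the tables were seen. Planned lists from description words were left out for want of descriptions. The values of some listed genes are not reported here.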

Additional observations from a re-analysis of the deposited data

Results flagged for a closer look

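For 15 of the 32 named genes the strain difference with acid differed from that without acid in edgeR's test of the difference itself (log2 value with acid minus without, adjusted p under 0.05 over all genes). All 32 were named because they passed with acid, and that value is part of the tested difference. The test passed for 25.5% of all genes tested and for 339 of the 673 called with acid, so the 15 are a description. The largest of these 15 values was −8.55 for the catalase gene YALI0_E34265g (adjusted p = 9.48e-05), and YALI0_E34749g had −5.07 (0.000424). POX5 had −4.07 (7.97e-05). Outside the lists YALI0_F19712g had −7.38 (0.00144), YALI0_E14256g −7.39 (5.01e-05) and YALI0_A14883g −3.64 (0.0462). For YALI0_A14883g the mutant without acid had 53.02 CPM in one library and 490.5 CPM in the other. PCK1 had −2.07 (0.0462) and HXK1 −1.29 (0.00599).

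Positive values were found for fatty acid synthesis, with 1.04 for ACC1 (0.0301), 1.42 for FAS1 (0.0106), 1.49 for FAS2 (0.00658), 1.26 for ACL1 (0.038) and 1.62 for ACL2 (0.0138). The P450 genes ALK1 and ALK5 had 2.48 (0.00719) and 3.57 (0.00011). No group had the 4 libraries needed to test for a sample that stands apart.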

How the results depend on the processing

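The 673 calls with acid became 1057 with DESeq2, 391 with a replicate block by title number and 409 with one by description number, and 134 to 768 when 1 library was left out. With the other alternatives (both other scalings, both other filters, the 6 libraries alone) the count was 648 to 845. Deviations from the group mean correlated at r = −0.371, 0.077 and −0.455 between same-numbered libraries of both strains. Between libraries of different number r was −0.195 to 0.487. Deviations from a mean of 3 libraries depend on each other, so these values cannot decide whether the samples were paired. Both blocks lost the calls of ANT1, YALI0_E34749g, ACL2, ALK1, KGD2, ICL1 and PYC1, the block by title also those of PXA2 and FAO1, and the block by description also those of ACL1, PEX10 and YALI0_A14883g. Beta-oxidation then had 3 and 4 called genes by title and description, and the glyoxylate list 1 and 1. Without acid the 2402 calls became 1375 to 2255 when 1 library was left out, the lowest without mutant replicate 2, and that fit assumes that the lone mutant library varies like the other groups. The 1604 calls for the difference between conditions became 1103 to 1631.

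Of 32 named genes, 12 kept their call with acid under all 14 alternatives and 0 changed sign. They were DGA1, FAS1, FAS2, ACC1, POX3, POX5, ALK5, YALI0_E34265g, YALI0_F23793g, YALI0_C11165g, YALI0_F19712g and YALI0_E14256g. The cause of the lost calls was not tested. With 3 libraries per group, a call lost without 1 of them does not show that the strains are alike.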

Other observations

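The called genes were spread over the chromosomes given by the letter of the locus tag, from 9.74% of the 924 tested genes on B to 12.4% of the 900 on C, with 0 of the 15 genes that carry no such letter.

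Wild-type replicate 1 lay nearest to the mutant in many called genes. It was the lowest wild-type library in 267 of the 358 genes lower in the mutant and the highest in 197 of the 315 higher genes. Over all 6301 genes tested it was the lowest in 2296 and the highest in 2324. Mutant replicate 1 was the highest mutant library in 246 of the 358 lower genes and the lowest in 127 of the 315 higher genes, against 2425 and 2563 of all genes. The labels name no batch for these libraries, and the part of these libraries in the results was not tested beyond leaving each out.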
